A study of Rattus norvegicus with 458 samples.

Results

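Small RNA libraries of the jejunum and the ileum were compared within the same rats. They were 20 of the 215 libraries of a rat miRNA atlas of 23 tissues, 10 of jejunum and 10 of ileum, and they were chosen by their tissue label alone. The animals were untreated Sprague Dawley rats of 12 to 13 weeks, 5 male and 5 female, numbered 2 to 11 in the labels, and each gave both segments. The jejunum piece came from around the midpoint of that segment and the ileum piece from its distal end, both were flushed, and each library held the RNA of the whole piece of gut wall. Of the 7534 miRNA names in the deposited count table, 3574 had a count in these libraries and 416 had enough counts to be tested.

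MiRNAs are short RNAs cut from hairpin precursors. A mature miRNA guides the silencing machinery to messenger RNAs that pair with its seed, bases 2 to 8 from its 5′ end, so miRNAs with the same seed share most predicted targets. The jejunum is the main site of nutrient absorption, while the ileum takes up bile acids and carries more lymphoid tissue. The absorptive epithelium of the gut is known for its high content of miR-192, miR-194 and miR-215, which come from a pair of loci with 2 hairpins each. The miR-10, miR-196 and miR-615 hairpins lie within the HOX gene clusters, whose genes are expressed in an order along the body axis.

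The mature sequences of the epithelial loci are shown first because miR-215 was the most counted miRNA that differed between the segments. All sequences run 5′ to 3′ with the seed in capitals, and they are from RefSeq (GRCr8) except those of miR-194-1-3p, miR-215-3p and miR-615-3p. For these 3 the most counted deposited sequence is given, since their counts stand under predicted or precursor names; the table also has a name miR-194-1-3p, with 2 counts in these libraries, which is not used here. The first hairpin pair, Mir194-1 (chr13:99382716-99382798, plus strand) and Mir215 (chr13:99382990-99383086, plus strand), lies within the Iars2 gene. The second pair, Mir194-2 (chr1:212994024-212994108, plus strand) and Mir192 (chr1:212994209-212994318, plus strand), lies between Atg2a and Ehd1.
miR-215: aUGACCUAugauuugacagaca
miR-192-5p: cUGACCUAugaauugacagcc
miR-194-5p: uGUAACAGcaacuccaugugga
miR-194-1-3p: cCAGUGGAgcugcuguuacuuu
miR-194-3p: cCAGUGGGgcugcuguuaucu
miR-215-3p: uCUGUCAUucuguaggccaaua
miR-192-3p: cUGCCAGUuccauaggucacag
MiR-215 and miR-192-5p have the same seed and differ at 3 bases outside it, whereas miR-194-1-3p and miR-194-3p differ at 3 bases, 1 of them in the seed. MiR-194-5p is made by both miR-194 hairpins and cannot be assigned to either locus, so the 3p strands and miR-215 or miR-192 mark the loci.

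The mature sequences from the HOX clusters follow because the largest differences between the segments were among them. Mir196c (chr10:81727551-81727630, plus strand) lies between Hoxb13 and Hoxb9, Mir10a (chr10:81779709-81779818, plus strand) between Hoxb5 and Hoxb4, and Mir196b (chr4:82661101-82661185, minus strand) between Hoxa9 and Hoxa10. Mir196a (chr7:135988876-135988985, plus strand) lies between Hoxc10 and Hoxc9, Mir615 (chr7:136030353-136030444, plus strand) within Hoxc5 and Hoxc6, and Mir10b (chr3:80035859-80035967, plus strand) within Hoxd4.
miR-196c-5p: uAGGUAGUuucguguuguuggg
miR-196b-5p: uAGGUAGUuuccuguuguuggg
miR-196a-5p: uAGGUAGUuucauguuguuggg
miR-196c-3p: aCAACAACaccaaaccaccuga
miR-615-3p: uCCGAGCCugggucucccucu
miR-10a-5p: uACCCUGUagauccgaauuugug
miR-10b-5p: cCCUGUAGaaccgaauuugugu
MiR-196c-5p differs from miR-196b-5p at 1 base and from miR-196a-5p at 1 base, both outside the seed. The printed RefSeq form of miR-10b-5p is not its most counted sequence, whose seed was ACCCUGU, that of miR-10a-5p, and its counts entered the seed sums there. Sequences that matched all 3 equally well were listed under a composite name, and a sequencing error at that base could move reads between the single names.

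The sequences of the pairs with a shared seed and of other miRNAs with clear differences were these.
miR-222-3p: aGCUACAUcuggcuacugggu
miR-221-3p: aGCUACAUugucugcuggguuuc
miR-132-3p: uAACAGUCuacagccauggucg
miR-212-3p: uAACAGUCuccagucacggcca
miR-31a-5p: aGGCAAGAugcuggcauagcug
miR-147: gUGUGCGGaaaugcuucugcua
MiR-222-3p and miR-221-3p share a seed and differ at 10 other bases, and miR-132-3p and miR-212-3p share a seed and differ at 5.

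Library totals were between 1041508 and 6647982 counts, with a median of 4708922, and the ileum of rat 9 had the lowest. The totals did not differ between the segments beyond the spread (exact paired permutation test, two-sided, p = 0.84). The RNA integrity number (RIN), a score of RNA degradation on which higher is more intact, did differ. It was 7.62 ± 0.618 (SD, n = 10) in the jejunum and 8.84 ± 0.217 (SD, n = 10) in the ileum, higher in the ileum of 9 rats and equal in rat 4 (exact paired permutation test, two-sided, p = 0.00391). Of the 20 libraries, 19 had the profile closest to the median of their own label over 798 names. The exception, the jejunum of rat 4, correlated 0.971 with the jejunum median and 0.976 with the ileum median over these names. The jejunum RNA of rats 10 and 11 had been extracted a second time. Names of miR-6087, miR-7641, miR-6236 and miR-6240 summed to 28.4, 63.0 and 3983 CPM (counts normalised to the library total; lowest, median and highest) in the jejunum and 46.9, 1642 and 26910 CPM in the ileum, with the highest values in jejunum rat 4 and ileum rat 9. Of the 37 names called in the comparison below, 14 kept their sign but had a fitted change more than 1.5 times smaller with RIN as a covariate, and 1 turned; these values are given with each of them, and none was called in that model.

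**Figure D1:**
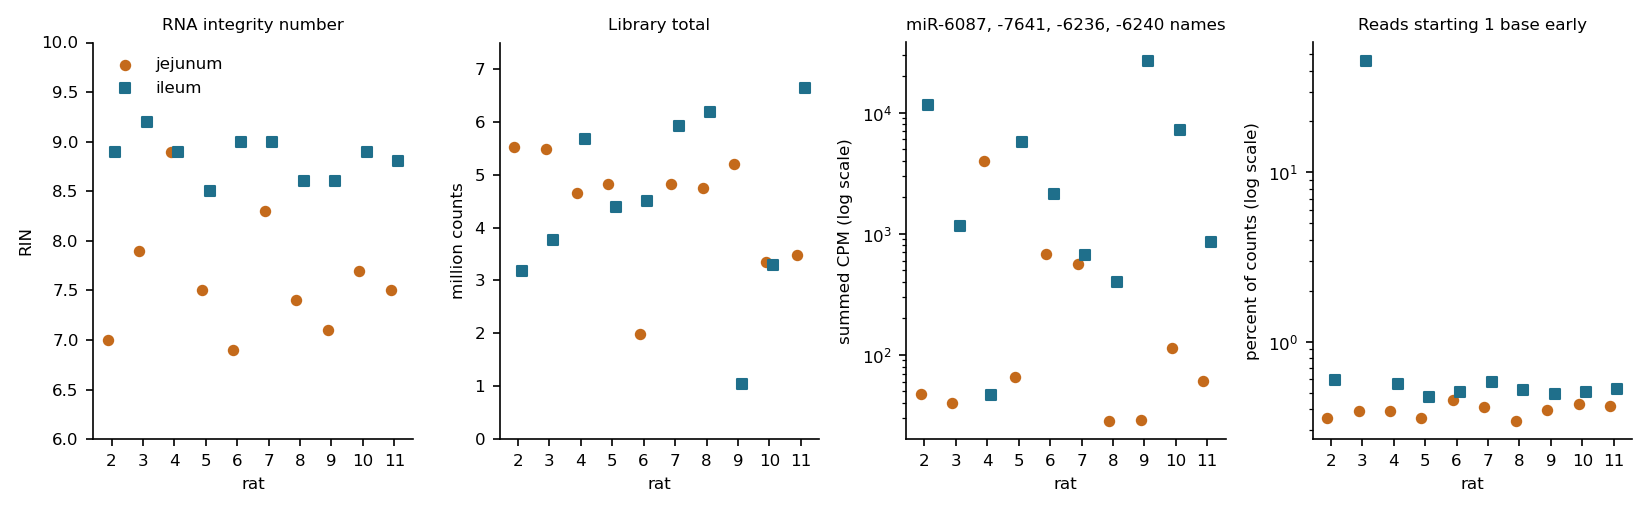
Quality measures of the 20 libraries by rat (x axis, rats 2 to 11), with jejunum as orange circles and ileum as blue squares: RIN, total counts, summed CPM of the 4 names' groups (log scale) and percent of counts starting 1 base before the usual start (log scale). The RIN is higher in the ileum of 9 rats, ileum rat 9 has the lowest total, and ileum rat 3 stands apart with 45.8% early starts.

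MiR-196c, which lies in the Hoxb cluster, separated the segments most. MiR-196c-5p was at 0, 0 and 1.29 CPM (lowest, median and highest) in the jejunum and at 55.1, 82.9 and 109 CPM in the ileum. It had 10 counts in the jejunum, in 4 libraries with 6 of them in that of rat 4, and 3428 in the ileum, a ratio of 339 over the pooled libraries (95% counting interval 184 to 708, counting error only). Every ileum library lay far above every jejunum library. The fitted log2 fold change, ileum over jejunum, was 8.48 ± 0.585 (SE; edgeR quasi-likelihood test with the rat as block, Benjamini-Hochberg adjusted p = 2.7e-06 over 416 names). It was past the threshold in all 22 alternatives in which it was tested, including the model with RIN as a covariate (5.80, adjusted p = 0.0286). The opposite strand of the same hairpin, miR-196c-3p, had 1 count in the jejunum and 770 in the ileum, a ratio of 761 with a counting interval of 136 to 30114. Its ileum level was 11.4, 16.9 and 24.8 CPM, and the adjusted p was 1.5e-07. Both strands of the hairpin were thus close to undetected in the jejunum and present in all 10 ileum libraries. In the authors' own check by quantitative PCR, miR-196c-5p gave no amplification, so its tissue pattern was not seen by that method.

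The other miR-196 members were higher in the ileum as well, at lower levels. MiR-196b-5p, from the Hoxa cluster, was at 0, 0.523 and 1.19 CPM in the jejunum and at 4.51, 17.4 and 31.4 CPM in the ileum, with 22 and 675 counts and a pooled ratio of 30.3 (counting interval 19.9 to 48.7). Its fitted log2 fold change was 4.68 ± 0.367 (adjusted p = 6.9e-06), and the groups did not overlap. Sequences that could not be told apart between miR-196a, miR-196b and miR-196c had no count in any jejunum library and 561 counts in the ileum. Against a floor of 3 counts over the jejunum group they were at least 185-fold higher in the ileum (adjusted p = 0.0170). MiR-196a-5p, from the Hoxc cluster, had too few counts to be tested, 7 in the jejunum and 103 in the ileum. These single-base relatives may exchange reads, so the level of miR-196b-5p in particular is uncertain.

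HOX cluster miRNAs with a substantial level in the jejunum differed less. MiR-615-3p was at 2.51, 8.08 and 11.8 CPM in the jejunum and 15.4, 19.7 and 27.0 CPM in the ileum without overlap, a log2 fold change of 1.46 ± 0.247 (adjusted p = 0.00285; 0.93 with RIN as a covariate). MiR-10a-3p was at 10.7, 13.1 and 16.6 CPM against 19.1, 22.4 and 27.8 CPM, again without overlap (log2 fold change 0.62 ± 0.169, adjusted p = 0.0421). Its far more abundant partner strand miR-10a-5p, the most counted HOX cluster miRNA, had 24313, 30753 and 45849 CPM in the jejunum and 40637, 50212 and 81269 CPM in the ileum. Its log2 fold change of 0.58 did not pass the threshold (adjusted p = 0.0976; 1.17 with RIN), but miR-10a-5p was called without ileum rat 9 (0.70, adjusted p = 0.0402) and with TMM scaling, another way of scaling libraries (adjusted p = 0.0294). MiR-10b-5p was not called (0.51, adjusted p = 0.190). Of the 8 tested names in the HOX cluster list, 5 were called higher in the ileum and none higher in the jejunum, with 8 of 8 log2 fold changes above 0 and a median of 2.65, also with the composite name at its bound. The called miR-196 names had at most 22 counts each over the jejunum libraries. They passed the filter on low counts through the ileum, so they could only be called higher there and their sign was fixed by it. The count of signs and the median of 2.65 rest on them, and neither speaks for the list as a whole. The miR-10 names of the list had log2 fold changes between 0.51 and 0.62. Both strands of a hairpin and composite names were counted separately in this list. MiR-615-3p, whose counts stand under a precursor name, was not in it. Without ileum rat 9, 7 of the 8 were called, and with TMM scaling 6. Over all 416 names 8.89% were called in either direction, 4.81% higher in the ileum and 4.09% higher in the jejunum, 183 had a log2 fold change above 0 and the median was -0.06.

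**Figure D2:**
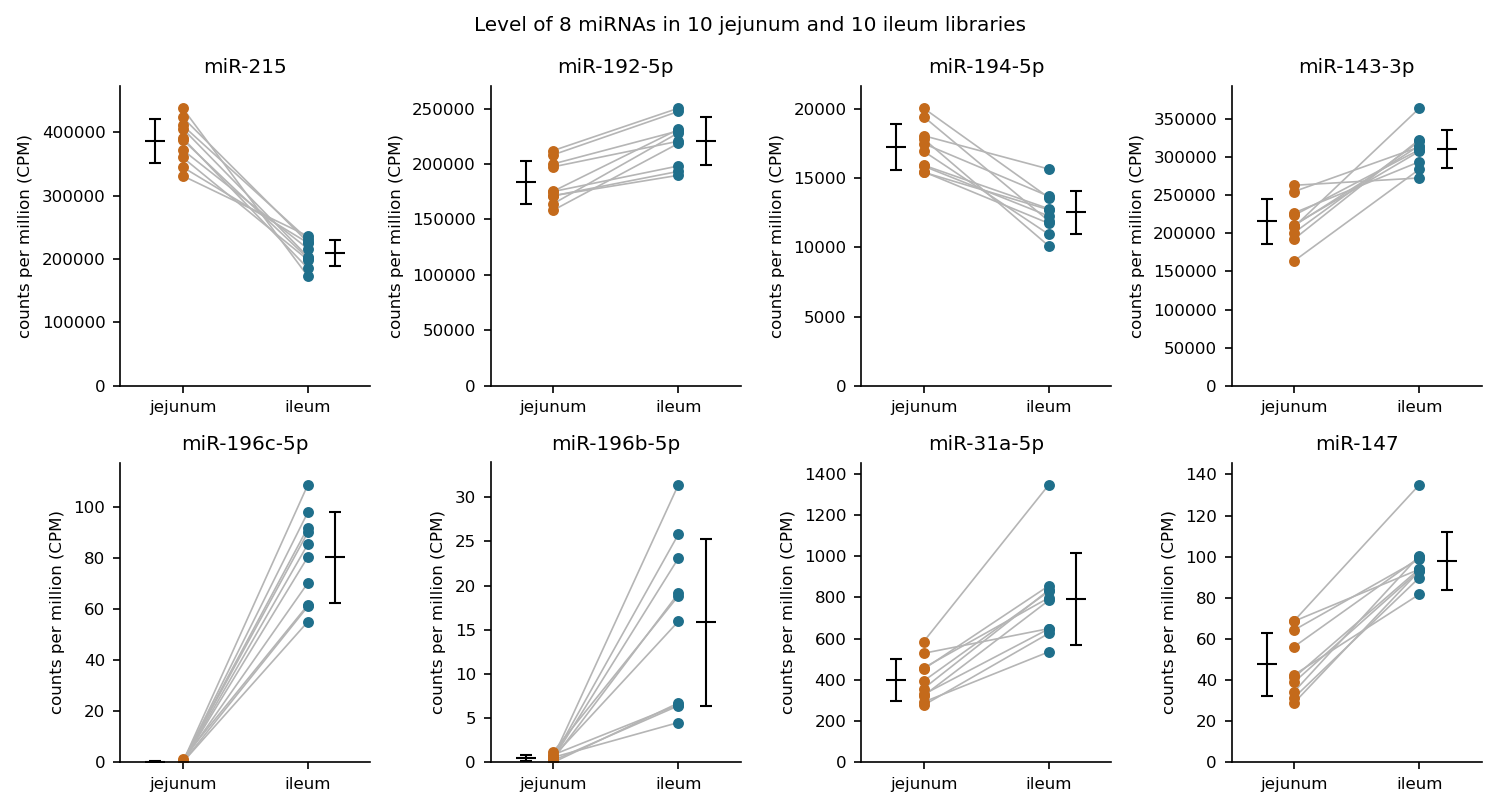
CPM (y axes, linear from 0) of 8 miRNAs in the 10 jejunum (orange) and 10 ileum (blue) libraries, with a grey line for each rat and black bars for the mean ± SD. MiR-215 is lower in the ileum of all 10 rats and miR-196c-5p lies between 55.1 and 109 CPM in the ileum against at most 1.29 CPM in the jejunum.

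MiR-215 was the most counted miRNA of the jejunum and was lower in the ileum of all 10 rats. It took 331149, 389384 and 437638 CPM (lowest, median and highest) in the jejunum and 172775, 209859 and 236176 CPM in the ileum, with no overlap. As a share of all counts it fell from 38.6% ± 3.44 to 21.0% ± 2.08 (SD, n = 10 each), a log2 fold change of -1.01 ± 0.114 (adjusted p = 0.000178). Its log2 fold change was between -1.17 and -0.75 over 22 alternatives, of which 20 called it. The exceptions were the RIN covariate (-0.75, adjusted p = 0.949) and the test without a filter on low counts (-0.93, adjusted p = 0.320). In rat 4, whose segments had the same RIN of 8.9, miR-215 was at 360075 CPM in the jejunum and 198578 CPM in the ileum.

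Products of both hairpins of the Iars2 locus moved together. MiR-215-3p, the strand opposite to miR-215, was at 1375, 1877 and 2143 CPM in the jejunum and at 822, 981 and 1423 CPM in the ileum, where only the highest ileum library reached the jejunum range (log2 fold change -0.995 ± 0.148, adjusted p = 0.00151; -0.58 with RIN). MiR-194-1-3p had 54.5, 68.0 and 85.9 CPM in the jejunum and 19.5, 30.2 and 41.3 CPM in the ileum, with no overlap (log2 fold change -1.31 ± 0.123, adjusted p = 3.5e-05). The products that mark the other locus did not pass the threshold, although miR-194-3p did so under some alternatives. MiR-192-5p was at 158339, 175320 and 212100 CPM in the jejunum and 189838, 224353 and 250297 CPM in the ileum (log2 fold change 0.14, adjusted p = 0.563). MiR-192-3p had a log2 fold change of -0.04 (adjusted p = 0.867) and miR-194-3p of -0.38 (adjusted p = 0.129). By CPM miR-194-3p was lower in the ileum of 10 of 10 rats, and it was called in 6 of 22 alternatives, among them TMM scaling (adjusted p = 0.0128) and library totals alone (adjusted p = 0.0300). MiR-194-5p, from both loci, lay between them, with 15434, 17227 and 20060 CPM against 10104, 12496 and 15664 CPM and a log2 fold change of -0.59 ± 0.132 (adjusted p = 0.0139; -0.37 with RIN). Reads assigned to both miR-192-5p and miR-215 (-0.31, adjusted p = 0.536) and the separately listed human name miR-215-5p (-0.69, adjusted p = 0.358) were not called. The latter had 576 CPM in ileum rat 3 alone.

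Ratios between miRNAs within a library need no scaling between libraries, and they are given as a description. Counts of miR-215 per count of miR-192-5p were 1.73, 2.11 and 2.49 (lowest, median and highest) in the jejunum and 0.747, 0.941 and 1.24 in the ileum. The ratio was lower in the ileum of 10 of 10 rats, and the groups did not overlap. MiR-215-3p per miR-192-3p was 35.5, 58.0 and 89.4 in the jejunum and 23.7, 29.4 and 34.0 in the ileum, also without overlap. MiR-194-1-3p per miR-194-3p was 2.22, 2.83 and 3.21 against 1.15, 1.4 and 2.39, lower in 10 of 10 rats with some overlap. In contrast, miR-215 per miR-215-3p was 176, 208 and 256 in the jejunum and 166, 204 and 261 in the ileum, so the strands of that hairpin kept similar proportions. In all 3 comparisons between the loci, the Iars2 locus contributed less relative to the other in the ileum.

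**Figure D3:**
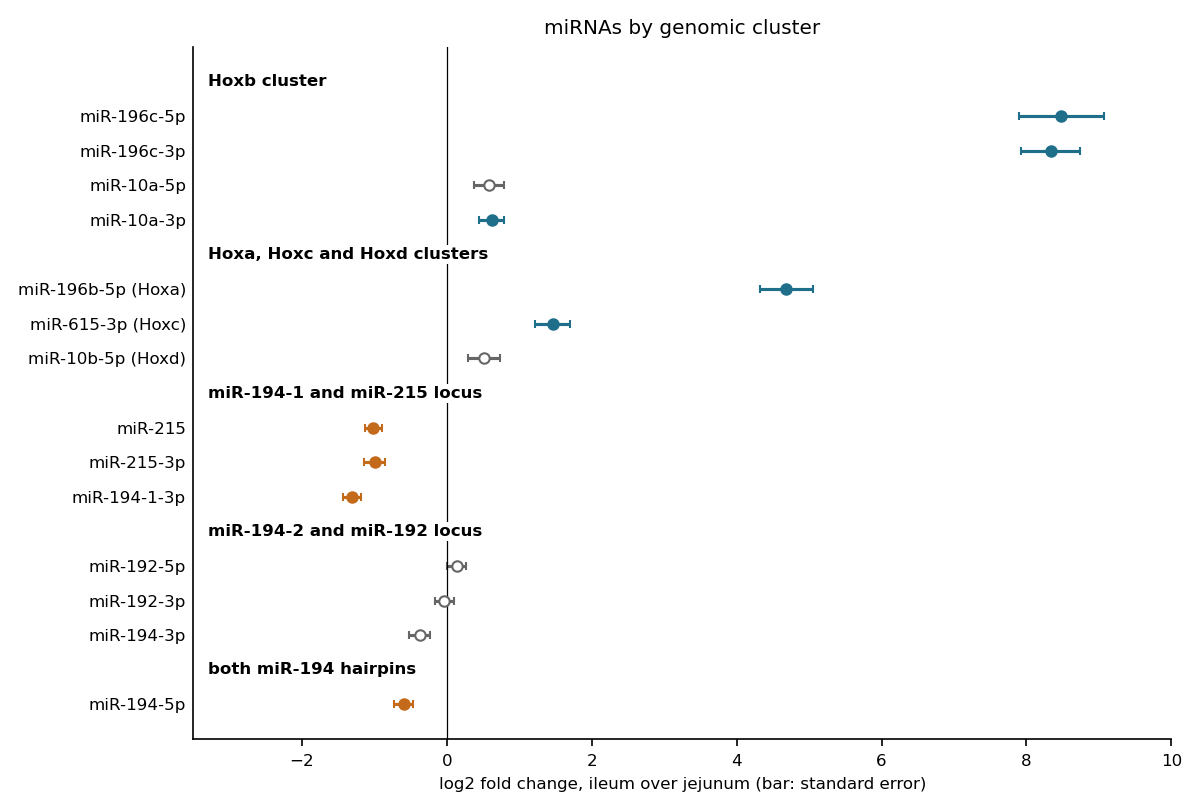
Log2 fold changes, ileum over jejunum (x axis), of miRNAs from the HOX clusters and from the miR-192, miR-194 and miR-215 loci, with bars for the standard error; filled points have an adjusted p under 0.05 and open points do not. MiR-215, miR-215-3p and miR-194-1-3p lie between -1.31 and -0.995, while miR-192-5p and miR-192-3p lie near 0.

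Across all 416 names, 37 differed between the segments, 20 higher in the ileum and 17 higher in the jejunum. The CPM ranges of the segments did not overlap for 3.85% of the tested names (16). Without ileum rat 9 there were 54 calls, 33 higher in the ileum and 21 higher in the jejunum, which included all 37. Without jejunum rat 4 there were 46 calls, and without both segments of rats 10 and 11 there were 25. With RIN as a covariate 1 name, miR-196c-5p, was called, and of the others 35 kept their sign. RIN and segment went together in 9 of 10 rats and cannot be fully told apart by this design for any name. MiR-196c-3p, the other strand of the miR-196c hairpin, had a log2 fold change of 6.57 in that model but was not called (edgeR quasi-likelihood test, adjusted p = 0.949). When rat 4, the rat with equal RIN, was left out of the fit, 48 names were called, of which 33 had the same direction in rat 4, against 246 of all 417 names tested.

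**Figure D4:**
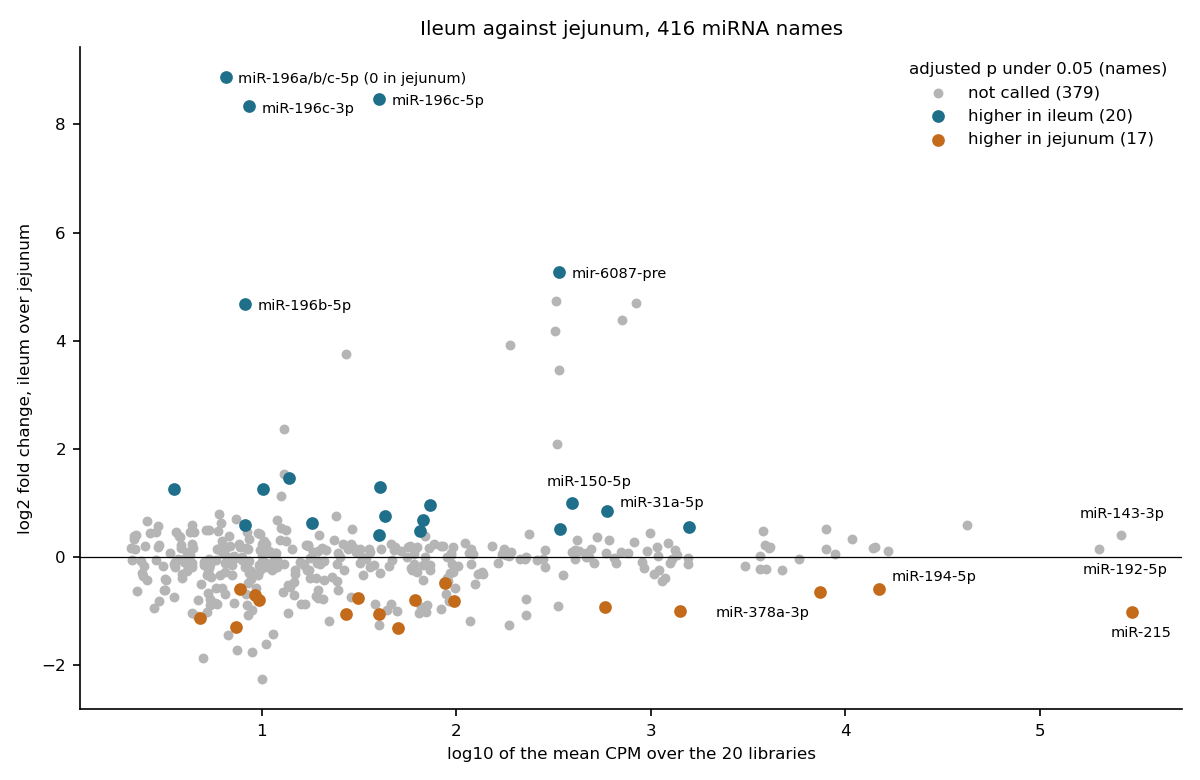
Log2 fold change, ileum over jejunum (y axis), against log10 of the mean CPM over the 20 libraries (x axis) for 416 miRNA names, with the 20 called higher in the ileum in blue, the 17 called higher in the jejunum in orange and the 379 others in grey. The miR-196 names lie far above the rest at low mean CPM, and miR-215 is the called name with the highest mean CPM.

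Outside the HOX clusters, miRNAs called higher in the ileum included miR-31a-5p, miR-147, miR-222-3p, miR-221-3p and miR-150-5p. MiR-31a-5p, known from proliferating epithelium, was at 278, 377 and 586 CPM in the jejunum and 536, 792 and 1347 CPM in the ileum (log2 fold change 0.85 ± 0.107, adjusted p = 0.000441). The groups overlapped at their edges, but the level was higher in the ileum of all 10 rats. Its partner miR-31a-3p was higher in 9 of 10 rats (1.26, adjusted p = 0.00761; 0.61 with RIN). MiR-147, whose hairpin lies within C3h15orf48 (chr3:130176275-130176353), had 29.0, 42.0 and 68.8 CPM in the jejunum and 81.7, 94.0 and 135 CPM in the ileum with no overlap (0.97, adjusted p = 0.00152).

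MiR-222-3p and miR-221-3p come from neighbouring hairpins on chromosome X and share a seed. MiR-222-3p was at 14.9, 21.8 and 31.7 CPM in the jejunum and 34.6, 55.1 and 91.4 CPM in the ileum (log2 fold change 1.28 ± 0.182, adjusted p = 0.00115). MiR-221-3p (0.76, adjusted p = 0.00541) and miR-221-5p (1.26, adjusted p = 0.00210) were also higher, and none of the 3 overlapped between the segments. MiR-150-5p, a miRNA of mature lymphocytes, was at 92.4, 235 and 359 CPM in the jejunum and 162, 536 and 1085 CPM in the ileum (0.99 ± 0.183, adjusted p = 0.00510). Its ileum levels were widely spread and overlapped those of the jejunum, although each rat had more in its ileum. By mean CPM over the tissues of the atlas, miR-150-5p was highest in heart (2060 CPM) and brainstem (2041 CPM). Whole blood had 299 CPM and the ileum was in rank 10, so its source in these libraries is not known.

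Smaller increases in the ileum were found for miR-204-5p (log2 fold change 0.68, adjusted p = 0.0145), miR-301b-3p (0.59, adjusted p = 0.0332), miR-429 (0.54, adjusted p = 0.0153; 0.35 with RIN), miR-183-5p (0.51, adjusted p = 0.0332), miR-24-2-5p (0.48, adjusted p = 0.0170) and miR-872-3p (0.40, adjusted p = 0.0139). MiR-429 belongs to the miR-200 family that maintains epithelial identity, and miR-183-5p to a cluster best known from sensory cells. The name mir-6087-pre was called with a log2 fold change of 5.28 ± 1.34 (adjusted p = 0.0289). By CPM it was higher in the ileum of 9 rats and lower in that of rat 4. In the jejunum it was at 256 CPM in rat 4 and at 1.26 to 47.2 CPM in the other libraries. In the ileum it was at 2903 CPM in rat 9 and at 6.34 to 1079 CPM in the other libraries. The log2 fold change of mir-6087-pre was -1.73 with RIN as a covariate. The summed CPM of the names of miR-6087, miR-7641, miR-6236 and miR-6240 was also higher in the ileum of 9 rats. Without the names of miR-6087, miR-7641, miR-6236 and miR-6240 there were 49 calls, 33 higher in the ileum and 16 higher in the jejunum.

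The miRNAs higher in the jejunum included strand pairs and pairs with a shared seed. MiR-132-3p, which is induced by activity in neurons, was at 22.5, 36.4 and 49.1 CPM in the jejunum and 9.11, 19.7 and 28.3 CPM in the ileum (log2 fold change -1.06 ± 0.170, adjusted p = 0.00228; -0.62 with RIN). MiR-212-3p, from the neighbouring hairpin and with the same seed, had a log2 fold change of -1.13 (adjusted p = 0.0105; -0.60 with RIN). The ranges overlapped, but both were lower in the ileum of 10 of 10 rats. MiR-378a-3p, known from mitochondrial metabolism and encoded in the gene of a coactivator of that process, was at 7659, 8330 and 11076 CPM against 5407, 5783 and 8116 CPM (-0.65 ± 0.110, adjusted p = 0.00285; -0.26 with RIN). Its partner miR-378a-5p (-1.06, adjusted p = 0.00761; -0.43 with RIN) and the shared name of miR-378a-3p and miR-378b (-0.82, adjusted p = 0.00334; -0.32 with RIN) were lower in the ileum too.

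MiR-223-3p, a miRNA of neutrophils and other myeloid cells, was at 62.7, 69.0 and 108 CPM in the jejunum and at 27.8, 47.7 and 62.7 CPM in the ileum (log2 fold change -0.79 ± 0.134, adjusted p = 0.00285). Apart from the edge of the ranges the groups were separate, and the change was opposite to that of miR-150-5p. MiR-23b-3p was lower in the ileum of 9 of 10 rats (-0.92, adjusted p = 0.00740; -0.42 with RIN). Further decreases in the ileum were those of miR-324-5p (-1.30, adjusted p = 0.0109; -0.45 with RIN), miR-187-3p (-0.81, adjusted p = 0.0139), miR-214-3p (-0.76, adjusted p = 0.0135; -0.49 with RIN), miR-203b-3p (-0.70, adjusted p = 0.0135), miR-345-5p (-0.60, adjusted p = 0.0153) and miR-17-5p (-0.48, adjusted p = 0.0397; -0.14 with RIN).

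The 10 most counted names made up 89.2% of the jejunum and 87.7% of the ileum counts, so their shares move against each other. MiR-143-3p, the leading miRNA of smooth muscle, was at 163736, 210490 and 262813 CPM in the jejunum and 272407, 311265 and 363763 CPM in the ileum, with no overlap. With upper-quartile scaling its log2 fold change was 0.40 (adjusted p = 0.0898), higher in 8 of 10 rats. MiR-143-3p was called in 10 of 22 alternatives, among them TMM scaling (0.41, adjusted p = 0.0151), library totals alone (0.53, adjusted p = 0.000464) and the fit without ileum rat 9 (0.47, adjusted p = 0.0422). MiR-27b-3p also had CPM ranges that did not overlap and a log2 fold change of 0.33 (adjusted p = 0.0898), and it was called with TMM scaling (adjusted p = 0.00122) and without ileum rat 9 (adjusted p = 0.0199). MiR-26a-5p (0.19), miR-191a-5p (0.17), miR-22-3p (0.10) and miR-181a-5p (0.06) were not called. With library totals alone 103 names were called, 79 higher in the ileum, or 76.7% of the calls against 54.1% with upper-quartile scaling, and the median of all names was 0.07.

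Lists of miRNAs known from the cell types of the gut wall were counted next, against 8.89% of all names called and 183 of 416 with a log2 fold change above 0. In the lists of 7 to 16 names, a single call is near that share. In whole pieces of tissue, fewer cells of a type and less RNA per cell cannot be told apart. Of 9 tested names of the miR-200 family, 1 (miR-429) was called higher in the ileum, 9 had a log2 fold change above 0 and the median was 0.23, with 3 calls under TMM scaling. MiR-141-3p had 0.45 (adjusted p = 0.056). Among 7 other epithelial names, 2 were called higher in the ileum (miR-31a-5p and miR-31a-3p) and 1 (miR-203b-3p) higher in the jejunum. None of the 3 endocrine and secretory names was called, among them miR-375-3p (0.18, adjusted p = 0.532), known from enteroendocrine and goblet cells.

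None of the 8 muscle names was called, with a median of 0.21, but 3 were with TMM scaling (2 higher in the ileum) and 1 without ileum rat 9. Their summed level, almost all of it miR-143-3p, was 165459, 212730 and 265153 CPM in the jejunum and 275728, 313678 and 365714 CPM in the ileum, higher in the ileum of 10 of 10 rats. The part of this sum in the other differences was not tested. Of 7 leukocyte names 1 (miR-150-5p) was called higher in the ileum and 1 (miR-223-3p) higher in the jejunum, with a summed level of 1436, 1900 and 2774 CPM against 808, 2250 and 3453 CPM. MiR-146a-5p, another leukocyte miRNA, had a log2 fold change of -0.79 (adjusted p = 0.102). Summed blood cell names (193, 289 and 387 CPM against 229, 300 and 526 CPM) and the 2 endothelial names, such as miR-126a-3p (-0.11, adjusted p = 0.591), gave no call.

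Of 8 neuronal names 2 (miR-132-3p and miR-212-3p) were called higher in the jejunum, while the summed level of the list was 171, 254 and 310 CPM in the jejunum and 211, 251 and 448 CPM in the ileum. No pancreas or liver name had enough counts to be tested, and their sum was at most 6.47 CPM. The miR-17-92 and miR-106b-25 clusters, which promote proliferation, had 14 tested names, 1 call (miR-17-5p) and a median of -0.27; miR-20a-5p had -0.42 (adjusted p = 0.052). None of the 23 let-7 and miR-98 names, which are known to restrain proliferation, was called, with a median of -0.19 and let-7a-5p at -0.46 (adjusted p = 0.068). With TMM scaling the let-7 list had 5 and the miR-17-92 list 3 calls, all higher in the jejunum. The list made for Dlk1-Dio3 imprinted miRNAs, whose positions were not looked up, had 1 call (miR-345-5p) among 16 tested names and a median of -0.06. Whether miR-345-5p belongs to that cluster was not checked, so its call is not one of the cluster. The list of miR-192, miR-194 and miR-215 had 2 calls higher in the jejunum among 7 tested names. Beside the 5 calls of the HOX cluster list, mostly of miR-196 names near 0 in the jejunum, no list had more than 3 of its tested names called. Names with precursor sequence were not in the lists. The calls of miR-615-3p, miR-215-3p and miR-194-1-3p therefore stand outside these counts, although their hairpins lie in the HOX clusters or the Iars2 locus.

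**Figure D5:**
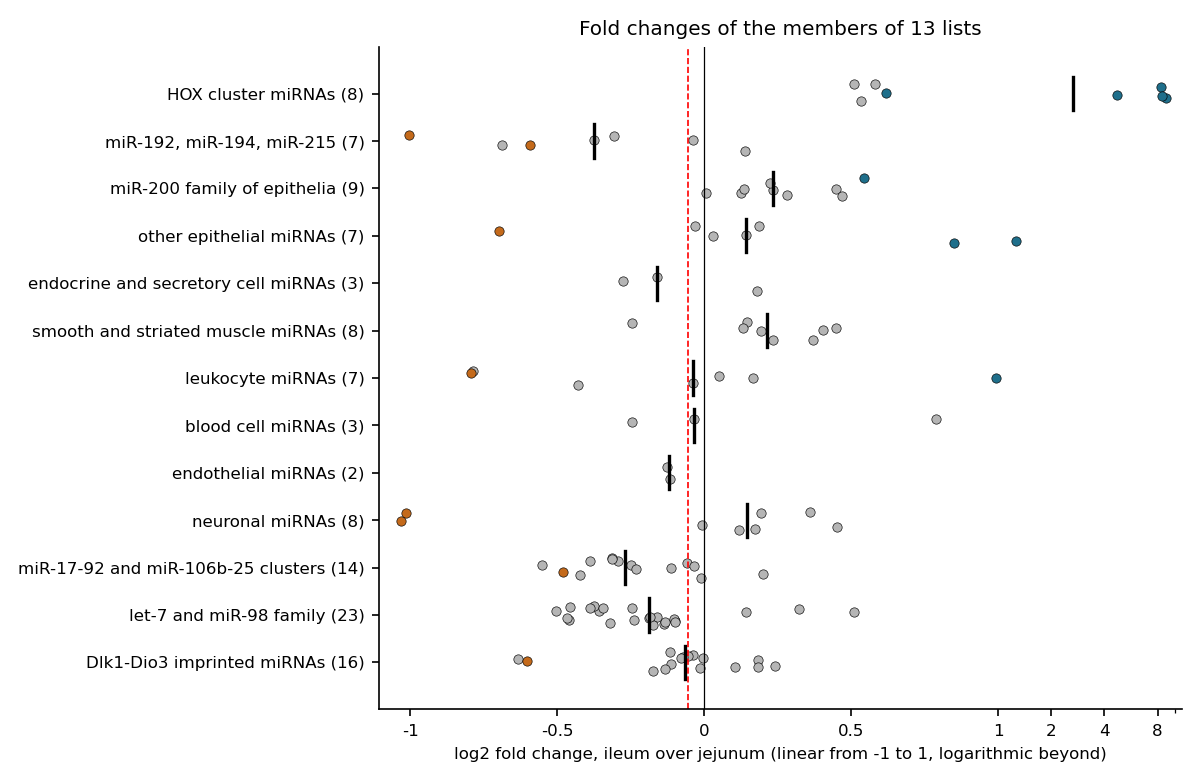
Log2 fold changes, ileum over jejunum (x axis, linear from -1 to 1 and logarithmic beyond), of the tested members of 13 lists, with the number tested in parentheses, the list median as a black bar and the median of all 416 names as a dashed red line. Blue points were called higher in the ileum, orange points higher in the jejunum and grey points were not called. The HOX cluster list has the highest median, 2.65. That median rests on miR-196 names near 0 in the jejunum, which passed the filter on low counts through the ileum.

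Counts were also summed over all names with the same seed, since these share predicted targets. Of 311 seeds, 24 (7.72%) differed between the segments, 10 higher in the ileum and 14 higher in the jejunum. The seed AGGUAGU of the miR-196 family rose from a mean of 0.880 CPM in the jejunum to 114 CPM in the ileum (log2 fold change 6.79, adjusted p = 5.7e-08). The seed UGACCUA, shared by miR-215 and miR-192-5p, fell from 569780 to 430411 CPM (-0.75 ± 0.183, adjusted p = 0.028), less than miR-215 alone. The seed AACAGUC of miR-132-3p and miR-212-3p was lower in the ileum (-1.29), as was CUGGACU of miR-378a-3p (-0.87), and GCUACAU of miR-221-3p and miR-222-3p was higher (0.80, adjusted p = 0.041).

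The deposited sequences also gave the forms of each miRNA. The share of counts with exactly the most counted sequence differed for 3 of 54 miRNAs (5.56%), each by exact paired permutation test with an adjusted p of 0.0352 and a lower share in the ileum of 10 of 10 rats. It fell from 51.8% to 42.9% for miR-200a-3p, from 46.8% to 40.1% for miR-23b-3p and from 25.3% to 20.7% for miR-203a-3p. These ileum means include rat 3, where counts that start 1 base early, described below, can lower this share and enlarge the fall. Without rat 9 none of 69 miRNAs was called, where 9 pairs allow no smaller unadjusted p than 0.00391, and without rat 3, 5 of 54 were. In the first flow cell alone 7 of 15 were called, 5 with a higher and 2 with a lower share in the ileum. The share of counts with the most counted 5′ end, which sets the seed, was called for 0 of 54 miRNAs (0%; 12 at an unadjusted p under 0.05, and 4 of 24 with a minimum of 2000 counts). The largest mean differences there rested on ileum rat 3. In that library 45.8% of counts started 1 base before the usual start, 56.3% in the run of its second flow cell and 0.671% in that of the first, against 0.340% to 0.590% in the other 19 libraries. The names with the smallest p were miR-30e-5p, miR-378a-3p and miR-191a-5p. For miR-191a-5p the share differed by -6.50 percentage points over 10 rats (adjusted p = 0.0703) and by -0.17 without rat 3. For miR-378a-3p it differed by -4.48 and -0.70, and for miR-30e-5p by -4.45 and -0.71. Both miR-378a-3p and miR-30e-5p had a lower share in the ileum of 10 of 10 rats (exact paired permutation test, adjusted p = 0.0527 each). The ratio of the arms of a hairpin was called for 0 of 21 hairpins (0%; 4 at an unadjusted p under 0.05), with the smallest adjusted p, 0.205, for miR-151, miR-200a and miR-872.

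The difference between the segments was compared between the sexes as an interaction term. No name was called by edgeR (0% of 416; 7 at an unadjusted p under 0.05) or by DESeq2. The smallest adjusted p, 0.199, was that of let-7e-3p, with a log2 fold change of -0.80 in females and 0.63 in males. MiR-190a-5p and miR-18a-3p, with interactions of -1.03 and -0.93, followed (adjusted p = 0.983). Within 5 rats of each sex, 3 names were called in females and 12 in males.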

How the data were processed

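Small RNA libraries (TruSeq) were sequenced on a HiSeq 2000 in 2 runs per library. The authors trimmed reads with cutadapt 1.4.1 and assigned them with miRDeep2 to miRBase names of rat and then of other species, with composite names for shared reads and "-pre" for precursor sequence, and they deposited unnormalized read counts per sequence and run. Here counts were summed per name and library over both runs, and 0 of their lanes was in the files more than once. Names with low counts were removed (filterByExpr, by tissue), which left 416, and edgeR 4.0.16 in R 4.3.3 (quasi-likelihood test, upper-quartile scaling, model with rat and tissue) gave fold changes of ileum over jejunum with Benjamini-Hochberg adjustment and a threshold of 0.05. CPM values are counts normalised to the library total. The same fit was made for seed sums and for the interaction with sex. IsomiR shares (at least 500 counts in each library) and arm ratios (at least 20) were compared by exact paired permutation tests, two-sided. No libraries of a segment were alike within sampling noise. The samples were paired because each rat gave both segments, although the deviations of a rat's libraries correlated little (median -0.14, 2 of 10 pairs over 0.1). Tested on simulated counts for this comparison, with 416 names of which 200 were changed, the fit recovered 56.8% of changes of log2 1 and 100% of changes of log2 2. At each size there were 2 calls among the unchanged names. All names were drawn with the same dispersion, 0.282, and with as many increases as decreases. The recovery holds for that setting and not for names unlike it.

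Named miRNAs were the markers miR-215 and miR-196c-5p, the tested names of the HOX and miR-192, miR-194 and miR-215 lists, the 10 largest changes in each direction (at least 10 CPM, same sign in 10 rats), the 10 most counted, the 3 leading names of the other tests and list examples. The remaining called names were named after their values were seen. The comparison, members and lists were chosen with earlier results of these data known. The alternatives were other scaling, filters and tests, no rat block, libraries left out, single flow cells, single names and RIN as a covariate; those by sex, without jejunum rat 4, without rat 3 for isomiRs, without 4 groups of names and further seed fits were chosen after seeing the data. Counting intervals and floors cover counting error only. Genome positions are those of RefSeq for GRCr8, and 245 of 298 tested single names matched a RefSeq mature sequence.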

Additional observations from a re-analysis of the deposited data

Results flagged for a closer look

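A library was set apart where its gap to the next one was a larger part of the range of its 10 libraries than Dixon's critical value, which chance gives in about 5% of groups. This held in 26 of 126 groups, 6 times for jejunum rat 4, 4 times each for ileum rat 3 and ileum rat 7, and 3 times for ileum rat 9.

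In jejunum rat 4, miR-196c-5p was at 1.29 CPM against at most 0.415 CPM in the other jejunum libraries, and miR-196c-3p at 0.214 CPM against 0. The same library had 16.5 CPM of miR-31a-3p, 256 CPM of mir-6087-pre, 3983 CPM of the names of miR-6087, miR-7641, miR-6236 and miR-6240 together, and a precursor share of 0.259%. Ileum rat 9, the library with the lowest total, had 2903 CPM of mir-6087-pre, 26910 CPM of those names together and a precursor share of 1.96%.

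In ileum rat 3, 45.8% of counts started 1 base before the usual start. It also had 576 CPM of the human name miR-215-5p against 28.8 to 62.9 CPM in the other ileum libraries, 30.0 CPM of the composite miR-196 name, and the lowest miR-345-5p, 4.25 CPM. Ileum rat 7 was the highest for miR-31a-5p (1347 CPM), miR-147 (135 CPM), miR-215-3p (1423 CPM) and miR-17-5p (108 CPM).

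The others were single values. In the jejunum they were miR-10b-5p in rat 6 (11031 CPM), miR-192-3p in rat 8 (19.1 CPM, the lowest), miR-194-3p in rat 7 (35.7 CPM), miR-375-3p in rat 7 (6274 CPM), miR-223-3p in rat 11 (108 CPM) and miR-301b-3p in rat 3 (15.3 CPM). In the ileum they were miR-301b-3p in rat 5 (16.4 CPM), miR-204-5p in rat 4 (145 CPM) and the shared name of miR-192-5p and miR-215 in rat 6 (186 CPM).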

How the results depend on the processing

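The 37 calls became 76 with TMM scaling, 103 with library totals alone, 78 with DESeq2 size factors in edgeR, 107 with DESeq2, 56 in the second flow cells alone, 70 with single names alone, 22 in the first flow cell alone, 12 in males, 3 in females and 1 with RIN as a covariate. Without the replicate block of rats there were 72 calls, 37 higher in the ileum and 35 higher in the jejunum, which included 36 of the 37. Leaving out a rat or library gave 33 to 55 calls, and no filter on low counts 33, 5 of them shared. The 24 seed calls became 45 with TMM scaling, 63 with DESeq2, 76 with library totals alone and 47 without the replicate block. List calls went from 17 to 33 with TMM scaling. The 5′ end share had 4 calls at 2000 counts. The exact-sequence share had 7 calls among 15 miRNAs tested in the first flow cell alone, 5 higher and 2 lower in the ileum. It had 0 calls at 2000 counts, where none of the 3 called miRNAs has enough counts to be tested, and 0 to 5 with a rat left out.

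Of 1517 combinations of a named miRNA and an alternative, 1196 kept direction and side of the threshold, 194 lost the call, 104 gained one and 23 turned. The only called name that turned was mir-6087-pre (-1.73 with RIN). MiR-192-3p turned with library totals alone (0.091), DESeq2 size factors (0.014), no filter (0.041), DESeq2 (0.014), RIN (0.15) and without the 4 groups of names (0.058), with -0.11 to 0.030 when a rat or library was left out. MiR-181a-5p was at -0.11 in the first flow cell and -0.029 without the re-extracted rats, and at -0.0072 to 0.15 with a rat or library left out. In the first flow cell miR-192-5p was at -0.010, miR-22-3p at -0.075 and miR-191a-5p at -0.0018, and in females miR-22-3p was at -0.024. The shared name miR-192-5p;miR-215 was at 0.062 with RIN and 0.015 in males, miR-215-5p at 0.18 without the replicate block, and miR-126a-3p at 0.016 with library totals alone and 0.11 with RIN. The cause was not tested. Names called in every alternative fixed at the start that tested them, apart from the RIN covariate, were miR-196c-5p, miR-196c-3p, miR-196b-5p and their composite with miR-196a-5p. Depth limits names with few counts, such as miR-196a-5p, which could not be tested.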

Other observations

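The place of the segments among the 23 tissues of the atlas is given as mean CPM, with no scaling between tissues and no test. MiR-196c-5p had its highest mean in the ileum (80.3 CPM), followed by adrenal (21.4 CPM) and ovary (15.8 CPM), with the jejunum in rank 15. MiR-196c-3p had the same leader, with 17.1 CPM in the ileum and 6.58 CPM in the adrenal. MiR-196b-5p, in contrast, was highest in the kidney cortex (601 CPM), and the ileum was in rank 11. MiR-147 was highest in the ileum (98.0 CPM) and second in the jejunum (47.6 CPM). MiR-215 and miR-194-5p had their highest means in the jejunum and the second highest in the ileum, and for miR-192-5p the ileum led, followed by the jejunum and the liver (148290 CPM). The mean of miR-215 was also 54198 CPM in ovary, 53544 CPM in uterus, 23309 CPM in hippocampus and 21045 CPM in adrenal. In the remaining tissues outside the intestine it was between 21.2 CPM (whole blood) and 1263 CPM (glandular stomach). Whether single libraries set the means of ovary, uterus, hippocampus and adrenal was not tested, so the tissue ranks hold for the labels as given.

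In the duodenum, the segment before the jejunum, miR-215 was at 6.35, 218927 and 323686 CPM (lowest, median and highest) and miR-196c-5p at 0, 0 and 28.1 CPM over 10 libraries. Of these libraries 6 had the profile closest to the duodenum median, so the values of that tissue are given without a rank.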
